A study of Mus musculus with 2 samples.

Results

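The 49 genes described here are interferon-stimulated genes and the receptors and transcription factors that control them. They were chosen by name, as a fixed list, out of the 22020 gene symbols in the deposited table, and all 49 were found in it. The list was made with earlier results of these data known, so its counts beside those of all genes are descriptions and test nothing. Their expression was measured by RNA-seq in LSK cells, the sorted cells that lack markers of mature blood lineages but carry c-Kit and Sca-1 on their surface, among which are the blood stem cells and the earliest progenitors. In Utx/p53 DKO (double knockout) animals both Kdm6a, which encodes the histone H3 lysine 27 demethylase Utx, and Trp53, which encodes the tumour suppressor p53, were deleted, and in p53 KO animals Trp53 was deleted and Kdm6a was not. Both groups were 8 weeks old and of the C57BL/6 strain background, so loss of p53 was shared by both and no library of p53-competent cells was compared. The sex of the mice, how many were pooled and the way each allele was deleted are not given in the sources used here. There was 1 library per genotype, with 19926294 reads for DKO and 17088105 reads for p53 KO. Every value below describes these 2 libraries, no difference has a replicate check, and intervals cover counting error only.

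Interferons are secreted proteins that warn cells of infection. Type I interferons bind a receptor made of Ifnar1 and Ifnar2, and the kinases Jak1 and Tyk2 then activate STAT proteins such as Stat2, which join Irf9 and bind a DNA element called the ISRE in the promoters of antiviral genes. Interferon gamma, the type II interferon, binds a receptor made of Ifngr1 and Ifngr2, and its signal acts through another element, the GAS. In blood stem cells interferons are known to push quiescent cells into division, and they raise Ly6a, the gene of the Sca-1 protein used in the LSK sort. Stem cells are also known to keep some interferon-stimulated genes switched on without infection.

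The libraries differed in markers of several cell types. Kdm6a had 1.26 RPKM in DKO and 5.32 RPKM in p53 KO cells, and Trp53 transcripts were counted in both, at 12.9 RPKM in DKO and 19.4 RPKM in p53 KO cells. The gate gene Ly6a had 281 RPKM in DKO and 255 RPKM in p53 KO cells and the gate gene Kit 16.02 RPKM in DKO and 64.2 RPKM in p53 KO cells, and 8 of 10 markers of the LSK gate and of stem and multipotent progenitors were at least 2-fold lower. Of 5 measured markers of the lineages that the gate removes 3 were at least 2-fold lower, among them the myeloid marker Itgam, which had 2.62 RPKM in DKO and 7.10 RPKM in p53 KO cells. All 12 granulocyte and monocyte markers were at least 2-fold higher and made up 15.3% of the summed RPKM in DKO and 1.75% in p53 KO cells. Of 8 markers of plasmacytoid dendritic cells, which are known for type I interferon and high Irf7, 6 were at least 2-fold lower and 1, Irf8, was higher. Their summed level was 238 RPKM in DKO and 359 RPKM in p53 KO cells. Siglech had 0.586 RPKM in DKO and 25.2 RPKM in p53 KO cells. Klk1 had 0 RPKM in DKO and 2.20 RPKM in p53 KO cells, the latter from 33 reads. The more abundant Bst2 stayed within the 2-fold rule, at 65.7 RPKM in DKO and 86.3 RPKM in p53 KO cells. Also at least 2-fold lower were 6 of 7 B lineage and 4 of 4 erythroid markers, and at least 2-fold higher were 6 of 8 T and NK and 5 of 6 macrophage markers. Over all measured genes 13.5% were at least 2-fold lower and 6.6% at least 2-fold higher. The B lineage and T and NK sums went against these counts. The B lineage sum was 626 RPKM in DKO and 493 RPKM in p53 KO cells, with Igll1 at 563 RPKM in DKO and 166 RPKM in p53 KO cells. The T and NK sum was 193 RPKM in DKO and 261 RPKM in p53 KO cells, with Nkg7 at 99.6 RPKM in DKO and 229 RPKM in p53 KO cells. In bulk RNA, fewer cells of a type and less RNA per cell cannot be told apart, and the part of these cell types in the levels of the interferon genes was not tested.

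The DKO library held lower levels of the OAS family, of Ifi44, Rtp4 and Xaf1, and of the factors Irf1, Irf5 and Irf7, and higher levels of the interferon gamma receptor gene Ifngr1 and of the GTPase gene Gbp3. Levels are given in RPKM, reads corrected for the length of the transcript and the depth of the library, and 48 of the 49 genes averaged at least 1 RPKM, the minimum set for a measured gene. Mx2 did not, at 0.685 RPKM in DKO and 1.02 RPKM in p53 KO cells. By a difference of at least 2-fold on log2(RPKM + 1), 15 of the 48 genes (31.2%) were lower in DKO cells, beside 13.5% of all 11356 measured genes. By the same rule 2 of the 48 (4.17%) were higher, beside 6.6% of all genes. The median log2(RPKM + 1) difference, DKO minus p53 KO, was -0.62 for the 48 genes and -0.24 for all genes. Lower RPKM in DKO cells of any size was found in 41 of the 48 and in 65.2% of all measured genes.

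Directions depended on how the libraries were scaled. The top 10 genes of each library made up 19.98% of all RPKM in DKO and 8.17% in p53 KO cells. Relative to the median of all genes, 9 of the 48 genes were at least 2-fold lower in DKO cells (8.76% of all genes) and 4 were at least 2-fold higher (9.63% of all genes). The authors' own comparison used normalization constants that move every log2 ratio up by 0.60. With those constants 5 of the 48 genes were at least 2-fold lower, beside 5.78% of all genes, and 5 were at least 2-fold higher, beside 15.9% of all genes. In the authors' deposited table the GFOLD value, a log2 change shrunken towards 0 for counting error, was below 0 for 20 of the 48 genes, beside 22.9% of all genes. It was above 0 for 17 of the 48, beside 54.5% of all genes, and at 0 for 11. Of the 48 genes, 26 were lower in DKO cells and 5 were higher under each of 5 scalings tried, and 17 changed sign between scalings. The same count was not made over all genes, 65.2% of which had lower RPKM in DKO cells. It therefore does not set these genes apart from the others. The 17 were Stat2, Irf3, Dhx58, Adar, Zbp1, Ifit1, Isg20, Mx1, Rsad2, Ifi35, Parp9, Parp14, Dtx3l, Gbp2, Ifi47, Ifitm2 and Ifngr2, and none of them differed by as much as 2-fold on the RPKM scale. A gene past the 2-fold rule could not change sign, since the scalings moved log2 ratios by at most 0.60. No minimum size was asked of the 26, and some were close to no change. With the gfold constants Irf9 had a log2 difference of -0.01 and Isg15 of -0.03.

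**Figure D1:**
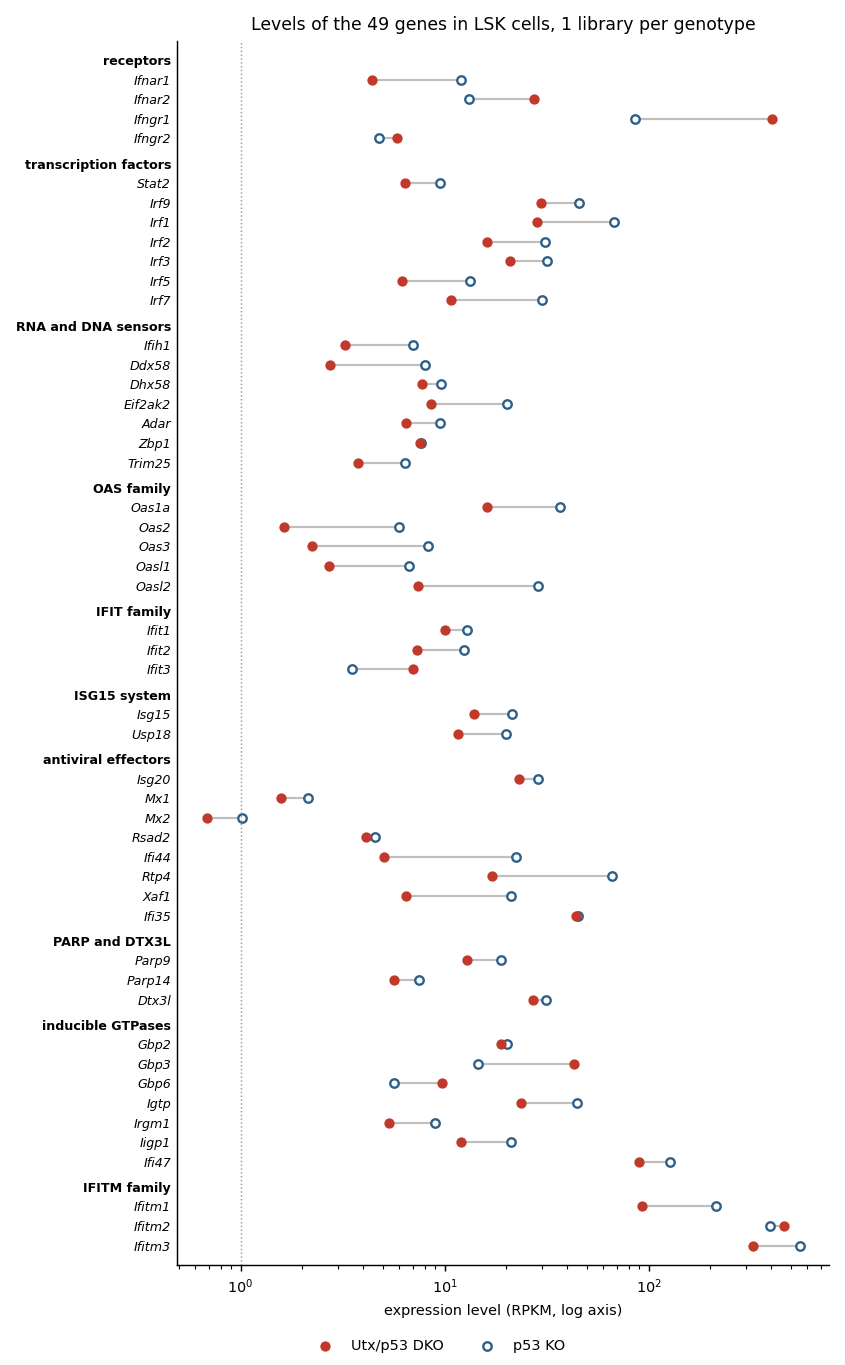
Expression levels in RPKM on a log axis (horizontal) of the 49 genes, grouped by role, with filled points for the Utx/p53 DKO library and open points for the p53 KO library and a dotted line at 1 RPKM. The 5 OAS genes, Ifi44, Rtp4 and Xaf1 have the filled point well to the left, while Ifngr1 and Gbp3 have it to the right.

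Among the 48 genes the levels spanned a wide range, with IFITM genes and Ifngr1 at the top. The median level was 9.90 RPKM in DKO and 19.5 RPKM in p53 KO cells. Ifitm2 (461 RPKM) and Ifngr1 (404 RPKM) were the most abundant in DKO cells, and Ifitm3 (551 RPKM) and Ifitm2 (391.9 RPKM) in p53 KO cells. Gbp3 ranked 7 of 48 in DKO cells and 26 of 48 in p53 KO cells, and Ifnar2 ranked 10 in DKO and 28 in p53 KO cells. The rank and ratio of Ifnar2 are those of 1 transcript, and its other transcript had nearly equal levels in both libraries. Exact 95% intervals of the RPKM ratio could be given for 46 of the 48, whose reads were recovered as whole numbers. Those intervals lay below 1 for 35 genes, above 1 for 7 and held 1 for 4. Against the ratio of 0.659 that is no change with the authors' constants, 22 lay below, 16 above and 8 held it. Intervals were made only for genes of the lists used here, so neither count can be set beside a share of all genes. Of all measured genes, 65.2% had lower RPKM in DKO cells.

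**Figure D2:**
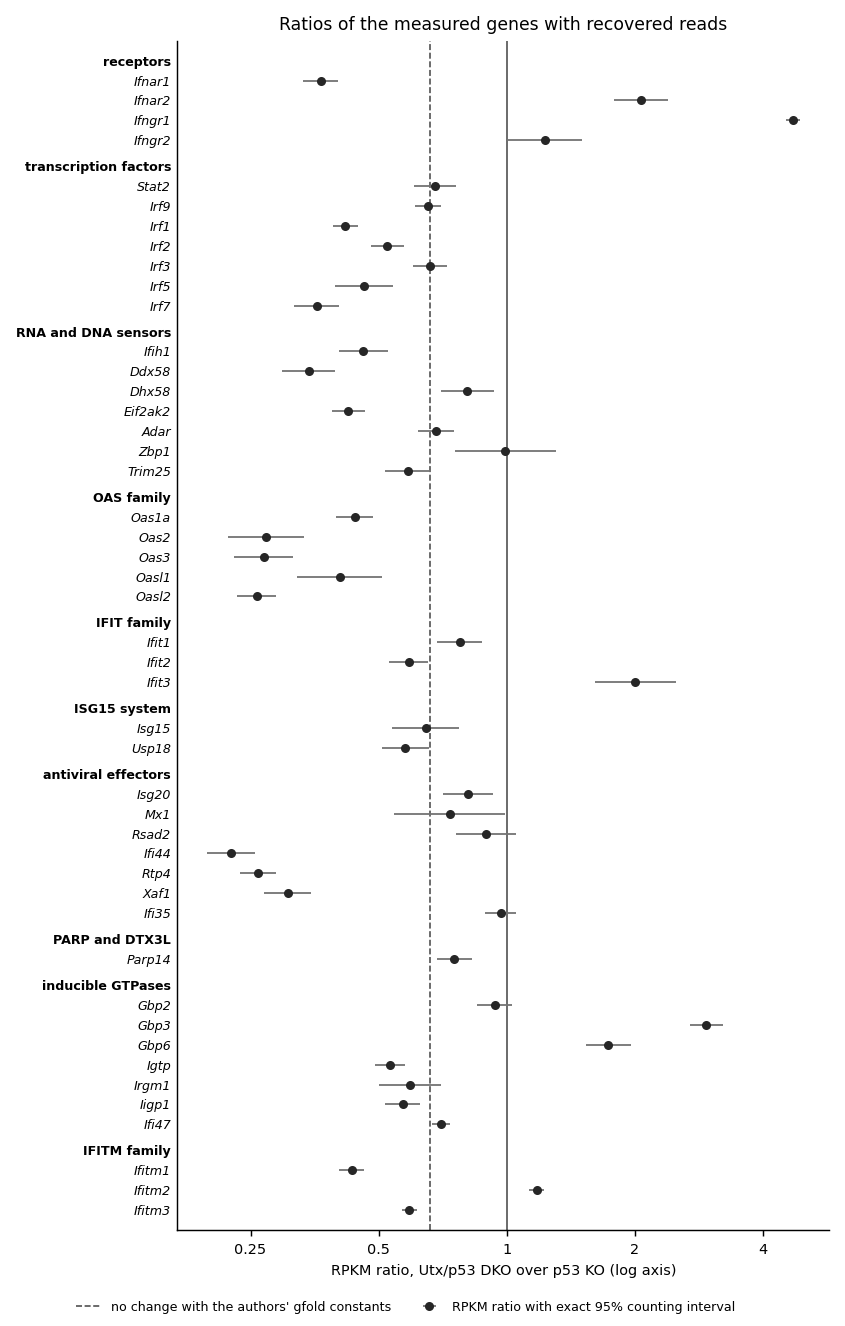
RPKM ratio, Utx/p53 DKO over p53 KO, on a log axis (horizontal) for the 46 measured genes with recovered reads, with bars for the exact 95% counting interval, a solid line at 1 and a dashed line at 0.659. The OAS genes, Ifi44, Rtp4 and Xaf1 lie left of both lines, and Ifnar2, Ifngr1, Ifit3, Gbp3 and Gbp6 lie right of both lines.

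The RefSeq promoters of these genes (build GRCm38.p6) were read for the letters of the elements through which interferons act. Windows of 300 bases, 250 before and 50 after the gene start, were given for 38 of the 48 measured genes. The letters of the ISRE, GAAA followed by any 2 bases and GAAA again, searched on both strands with overlapping matches counted, were found in 17 of the 38 (44.7%), beside 4.04% of the 7924 measured genes with a window. The GAS letters TTCNNNGAA, also on both strands, were found in 12 of the 38 (31.6%), beside 8.64% of those genes, and 5 genes had both. A match is a description of the letters, and a missing match does not show that the element is absent. The 50-base part after the start is not printed.

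The medians of genes with and without the ISRE letters lay close together. The median log2(RPKM + 1) difference was -0.66 for the 17 with a match (-1.53 to 1.497) and -0.64 for the 21 without (-1.95 to 2.22). Of the 17 with a match, 4 were at least 2-fold lower and 1 was at least 2-fold higher, and of the 21 without, 9 were lower and 1 was higher. Of all measured genes with a window, 14.7% of those with the ISRE letters and 13.3% of those without were at least 2-fold lower. For the GAS letters the medians were -0.82 with a match and -0.60 without, and 4 of 12 with a match and 9 of 26 without were at least 2-fold lower, beside 16.6% and 13% over all genes. Over all measured genes the medians were -0.25 with and -0.24 without the ISRE letters. The 6 promoters below are shown because they hold the ISRE letters before the gene start and belong to the genes with the largest differences of those that do: Oas3, Oas1a, Irf2 and Igtp were lower in DKO cells, and Gbp3 and Ifit3 were higher. Each is the 250 bases before the gene start, 5′ to 3′ on the strand of the gene, with the ISRE letters in capitals. They are Oas3 from chr5:120777660-120777909 on the minus strand, Oas1a from chr5:120907526-120907775 on the minus strand, Irf2 from chr8:46739495-46739744 on the plus strand, Igtp from chr11:58199306-58199555 on the plus strand, Gbp3 from chr3:142559794-142560043 on the plus strand and Ifit3 from chr19:34583279-34583528 on the plus strand.
Oas3: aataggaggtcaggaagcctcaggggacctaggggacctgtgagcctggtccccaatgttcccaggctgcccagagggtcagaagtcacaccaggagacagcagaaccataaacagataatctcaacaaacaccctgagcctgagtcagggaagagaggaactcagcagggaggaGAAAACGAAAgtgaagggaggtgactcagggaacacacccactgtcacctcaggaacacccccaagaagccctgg
Oas1a: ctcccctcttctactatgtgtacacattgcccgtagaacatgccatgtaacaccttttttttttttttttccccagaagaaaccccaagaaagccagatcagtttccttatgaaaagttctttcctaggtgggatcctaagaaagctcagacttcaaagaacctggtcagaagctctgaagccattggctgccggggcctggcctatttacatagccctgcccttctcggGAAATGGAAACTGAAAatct
Irf2: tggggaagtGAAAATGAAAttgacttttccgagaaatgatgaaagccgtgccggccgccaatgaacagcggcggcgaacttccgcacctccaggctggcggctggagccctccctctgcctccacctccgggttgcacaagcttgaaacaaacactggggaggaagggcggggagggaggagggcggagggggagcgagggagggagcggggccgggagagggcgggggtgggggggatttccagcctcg
Igtp: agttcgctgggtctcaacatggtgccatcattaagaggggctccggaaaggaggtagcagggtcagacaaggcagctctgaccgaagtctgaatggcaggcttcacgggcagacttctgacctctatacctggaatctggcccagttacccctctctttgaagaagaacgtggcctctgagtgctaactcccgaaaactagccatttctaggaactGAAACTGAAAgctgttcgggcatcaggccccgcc
Gbp3: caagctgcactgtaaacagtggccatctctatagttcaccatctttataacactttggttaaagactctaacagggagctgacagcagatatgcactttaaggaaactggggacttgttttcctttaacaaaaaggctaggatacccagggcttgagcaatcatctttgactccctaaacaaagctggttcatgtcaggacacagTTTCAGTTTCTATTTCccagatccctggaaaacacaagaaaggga
Ifit3: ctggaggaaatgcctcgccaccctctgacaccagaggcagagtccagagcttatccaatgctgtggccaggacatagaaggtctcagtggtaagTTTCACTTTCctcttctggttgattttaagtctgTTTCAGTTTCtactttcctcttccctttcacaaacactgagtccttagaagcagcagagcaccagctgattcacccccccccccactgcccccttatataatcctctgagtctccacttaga
The match nearest the start ended 65 bases before it in Oas3, 4 in Oas1a, 231 in Irf2, 24 in Igtp, 29 in Gbp3 and 112 in Ifit3. Oas1a, Gbp3 and Ifit3 had 2 matches each, which overlap in Oas1a and Gbp3. The same letters stood before Oas3, which was lower in the DKO library, at 2.23 RPKM in DKO and 8.31 RPKM in p53 KO cells. They also stood before Gbp3, which was higher, at 42.9 RPKM in DKO and 14.6 RPKM in p53 KO cells. The part of the element in these levels was not tested.

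The receptor genes differed in opposite directions between receptors, and within the type I receptor by 1 of the 2 Ifnar2 transcripts. Ifngr1, the ligand-binding chain of the interferon gamma receptor, had 404 RPKM in DKO and 85.9 RPKM in p53 KO cells, a ratio of 4.71 (95% interval 4.53 to 4.89), the highest of the 46. Its partner chain Ifngr2 was near 5 RPKM in both, at 5.87 RPKM in DKO and 4.78 RPKM in p53 KO cells. Ifnar1, a chain of the type I receptor, was lower, at 4.42 RPKM in DKO and 12.1 RPKM in p53 KO cells, a ratio of 0.365 (95% interval 0.332 to 0.402). Ifnar2, the chain that binds type I interferon most tightly, had a ratio in the other direction, with 27.3 RPKM in DKO and 13.2 RPKM in p53 KO cells. Its log2(RPKM + 1) difference of 0.99 was just short of the 2-fold rule. These values come from the transcript with the higher mean RPKM, which had 636 reads in DKO and 264 reads in p53 KO cells. The other Ifnar2 transcript had more reads, 1170 in DKO and 982 in p53 KO cells. It had 19.3 RPKM in DKO and 18.9 RPKM in p53 KO cells, a ratio of 1.02 with a 95% interval (0.938 to 1.11) that held 1. Ifnar2, Ifnar1 and Ifngr2 are neighbours on chromosome 16, with 1 gene between Ifnar2 and Ifnar1 and 0 between Ifnar1 and Ifngr2, and in that order their log2 differences were 0.99, -1.27 and 0.25.

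The transcription factor genes lay on 1 side: all 7 had lower RPKM in DKO cells, 3 of them by at least 2-fold (65.2% and 13.5% of all measured genes), although Stat2 and Irf3 changed sign with the authors' gfold constants. Irf7, the factor that amplifies type I interferon production and is itself induced by interferon, had 10.7 RPKM in DKO and 29.9 RPKM in p53 KO cells, a log2 difference of -1.40. Irf1, a factor induced chiefly by interferon gamma, had 28.2 RPKM in DKO and 67.6 RPKM in p53 KO cells, a log2 difference of -1.23 that its 3 transcripts shared (-1.24 to -1.21). Irf5, which acts downstream of Toll-like receptors, stood at the edge of the rule with a log2 difference of -1.001, with 6.17 RPKM in DKO and 13.4 RPKM in p53 KO cells. Irf2, an antagonist of Irf1, had 16.2 RPKM in DKO and 31.0 RPKM in p53 KO cells, short of the 2-fold rule. The factors of the type I complex differed less. Irf9 had 29.8 RPKM in DKO and 45.5 RPKM in p53 KO cells, and Stat2 had 6.43 RPKM in DKO and 9.48 RPKM in p53 KO cells. With the gfold constants the log2 difference of Irf9 was -0.01. Irf3, which is present before infection and is switched on by phosphorylation, had 20.9 RPKM in DKO and 31.6 RPKM in p53 KO cells.

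Of the 7 genes for sensors and binders of foreign or double-stranded nucleic acid, all had lower RPKM in DKO cells and 2 were at least 2-fold lower (65.2% and 13.5% of all measured genes), but Dhx58, Adar and Zbp1 changed sign between scalings. Ddx58, which encodes the RNA sensor RIG-I, had 2.75 RPKM in DKO and 8.03 RPKM in p53 KO cells, a ratio of 0.343 (95% interval 0.297 to 0.395). Eif2ak2, the double-stranded RNA kinase PKR that halts translation, had 8.56 RPKM in DKO and 20.2 RPKM in p53 KO cells. Ifih1, the long double-stranded RNA sensor MDA5, had 3.24 RPKM in DKO and 7.04 RPKM in p53 KO cells, a log2 difference of -0.92. Trim25, the ubiquitin ligase linked to RIG-I activation, had 3.76 RPKM in DKO and 6.42 RPKM in p53 KO cells. Dhx58, the third helicase of the RIG-I family, differed less than the others, at 7.76 RPKM in DKO and 9.61 RPKM in p53 KO cells. Adar, the RNA-editing enzyme that marks cellular double-stranded RNA as self, had 6.49 RPKM in DKO and 9.51 RPKM in p53 KO cells. Zbp1, a sensor of Z-form nucleic acid in cell death, had 7.58 RPKM in DKO and 7.64 RPKM in p53 KO cells, and its interval of 0.755 to 1.31 held a ratio of 1.

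All 5 members of the OAS family were at least 2-fold lower in DKO cells (13.5% of all measured genes), with a median log2 difference of -1.41. Each was below 0 under the 5 scalings tried, as any gene lower by the 2-fold rule would be, since the scalings moved log2 ratios by at most 0.60. Relative to the median of all genes 3 of the 5 were at least 2-fold lower (8.76% of all genes), Oas2, Oas3 and Oasl2. With the authors' gfold constants 2 were (5.78% of all genes), Oas3 and Oasl2. These genes encode 2′-5′ oligoadenylate synthetases, which sense double-stranded RNA and switch on the ribonuclease RNase L, and related OAS-like proteins. Oasl2 had 7.41 RPKM in DKO and 28.7 RPKM in p53 KO cells, 3.87-fold lower (95% interval 3.49 to 4.31). Oas3 had 2.23 RPKM in DKO and 8.31 RPKM in p53 KO cells, and Oas2 had 1.64 RPKM in DKO and 6.01 RPKM in p53 KO cells. Oas1a, the most abundant, had 16.1 RPKM in DKO and 36.6 RPKM in p53 KO cells. Oasl1, which is known to restrain Irf7 translation, had 2.72 RPKM in DKO and 6.70 RPKM in p53 KO cells, the smallest difference of the family at -1.05 on the log2 scale. All 5 lie on chromosome 5 in 2 clusters, Oasl2 beside Oasl1 and Oas2 beside Oas3, with 5 genes between Oas3 and Oas1a. Oas1a shares sequence with near copies, Oas1g among them, and its value is uncertain where reads could map to either. With the authors' gfold constants the family median was -0.96 on the log2 scale.

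The IFIT genes, whose proteins bind viral RNA that lacks the host cap marks, differed in direction. Ifit3 was higher in DKO cells, with 7.03 RPKM against 3.51 RPKM in p53 KO cells and a ratio of 2.00 (95% interval 1.61 to 2.50). Ifit2 was lower, with 7.33 RPKM in DKO and 12.5 RPKM in p53 KO cells. Ifit1 had 10.03 RPKM in DKO and 12.9 RPKM in p53 KO cells, and its sign depended on the scaling. Ifit2 and Ifit3 are next to each other on chromosome 19 and had log2 differences of -0.69 and 0.83, neither at the 2-fold rule on the log2(RPKM + 1) scale. These genes have close copies in the mouse genome, so reads could be shared among them.

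The ISG15 pair was lower by less than 2-fold, and 3 of the 7 measured effectors were at least 2-fold lower (13.5% of all measured genes). Isg15, a ubiquitin-like protein attached to other proteins, had 13.9 RPKM in DKO and 21.5 RPKM in p53 KO cells, and Usp18, the enzyme that removes it and damps receptor signalling, had 11.6 RPKM in DKO and 20.1 RPKM in p53 KO cells. Usp18 was 1.73-fold lower (95% interval 1.52 to 1.97) and Isg15 1.55-fold lower (95% interval 1.29 to 1.86). With the gfold constants their log2 differences were -0.18 for Usp18 and -0.03 for Isg15, and the authors' GFOLD value was 0 for each. Ifi44, an interferon-induced gene with antiviral activity, had 5.07 RPKM in DKO and 22.5 RPKM in p53 KO cells, 4.44-fold lower (95% interval 3.90 to 5.06). Rtp4, which encodes a transporter-like protein with antiviral activity, had 17.1 RPKM in DKO and 66.0 RPKM in p53 KO cells, 3.85-fold lower (95% interval 3.49 to 4.25). Xaf1, a partner of the apoptosis inhibitor XIAP, had 6.45 RPKM in DKO and 21.1 RPKM in p53 KO cells, 3.27-fold lower (95% interval 2.88 to 3.71). The other effectors stayed within the 2-fold rule and changed sign between scalings. Rsad2 (viperin) had 4.10 RPKM in DKO and 4.58 RPKM in p53 KO cells, the exonuclease gene Isg20 had 23.2 RPKM in DKO and 28.6 RPKM in p53 KO cells, and Ifi35 had 43.9 RPKM in DKO and 45.4 RPKM in p53 KO cells. Mx1, a dynamin-like antiviral gene that is not functional in C57BL/6 mice, had 1.58 RPKM in DKO and 2.15 RPKM in p53 KO cells.

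Parp9, Dtx3l and Parp14, neighbours on chromosome 16, also stayed within the 2-fold rule. Parp9 and Dtx3l form a complex that adds ADP-ribose and ubiquitin in the interferon response, and Parp14 is a related ADP-ribosyltransferase. Parp9 had 12.9 RPKM in DKO and 18.9 RPKM in p53 KO cells, Dtx3l 27.2 RPKM in DKO and 31.3 RPKM in p53 KO cells, and Parp14 5.63 RPKM in DKO and 7.47 RPKM in p53 KO cells. Each of the 3 was lower on the RPKM scale (65.2% of all measured genes) and each changed sign with the authors' gfold constants.

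The interferon-inducible GTPases attack the vacuoles of intracellular microbes and are induced mainly by interferon gamma. Of their 7 measured members 1, Gbp3, was at least 2-fold higher (6.6% of all measured genes) and 0 were at least 2-fold lower (13.5%). All 4 IRG members (immunity-related GTPases) had lower RPKM in DKO cells (65.2% of all measured genes), by less than 2-fold, with a median log2 difference of -0.71. Ifi47 changed sign with the authors' gfold constants. Igtp had 23.8 RPKM in DKO and 44.7 RPKM in p53 KO cells, Irgm1 had 5.32 RPKM in DKO and 8.96 RPKM in p53 KO cells, and Iigp1 had 12.03 RPKM in DKO and 21.1 RPKM in p53 KO cells. Ifi47 was the most abundant of them, at 89.4 RPKM in DKO and 127 RPKM in p53 KO cells. The 3 GBP members (guanylate-binding proteins) had a median log2 difference of 0.70. Gbp3 was 2.95-fold higher (95% interval 2.70 to 3.22), with 42.9 RPKM in DKO and 14.6 RPKM in p53 KO cells, and Gbp6 had 9.77 RPKM in DKO and 5.63 RPKM in p53 KO cells. Gbp2, separated from Gbp3 by 1 gene on chromosome 3, had 19.0 RPKM in DKO and 20.2 RPKM in p53 KO cells, and its interval of 0.854 to 1.03 held a ratio of 1. Both families hold close copies whose reads may be split between genes.

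The IFITM genes encode small membrane proteins that block the entry of viruses into the cytoplasm, and they had the highest summed level of these roles. Their summed level was 880 RPKM in DKO and 1158 RPKM in p53 KO cells, out of 1910 RPKM in DKO and 2219 RPKM in p53 KO cells for all 49 genes. Ifitm1 was at least 2-fold lower, with 92.9 RPKM in DKO and 215 RPKM in p53 KO cells and a ratio of 0.432 (95% interval 0.404 to 0.462). Ifitm3, the most potent of the 3 against viruses, had 326 RPKM in DKO and 551 RPKM in p53 KO cells. Ifitm2 had 461 RPKM in DKO and 391.9 RPKM in p53 KO cells, and its sign depended on the scaling. The order of the levels therefore differed, with Ifitm2 above Ifitm3 in DKO cells and Ifitm3 above Ifitm2 in p53 KO cells. The 3 genes are direct neighbours on chromosome 7 and have similar sequences, so reads could be exchanged among them.

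**Figure D3:**
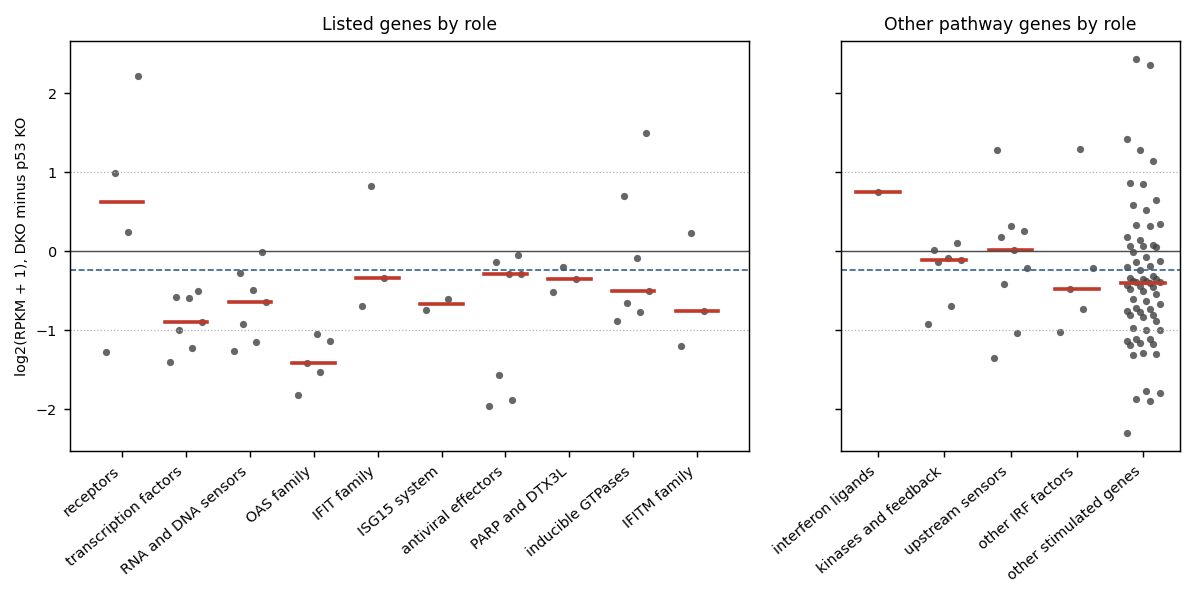
Difference in log2(RPKM + 1), DKO minus p53 KO (vertical), for the measured genes by role (48 listed genes, left panel) and for 91 other genes of the pathway (right panel), with 1 point per gene, a red bar at each median, a solid line at 0, a dashed line at the all-gene median of -0.24 and dotted lines at the 2-fold rule. The OAS family has the lowest median (-1.41) and the receptors the highest median (0.62) of the roles in the left panel.

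Other genes of the interferon pathway were taken from a list of 111, of which 106 were found and 91 measured. This list too was made with earlier results of these data known. Of the 91, 18 (19.8%) were at least 2-fold lower and 7 (7.69%) at least 2-fold higher in DKO cells, beside 13.5% lower and 6.6% higher among all measured genes, and their median log2 difference was -0.38. Interferon genes themselves were near 0 reads: Ifnb1 had 0 reads in DKO and 5 reads in p53 KO cells, Ifna1 had 0 reads in DKO and 8 reads in p53 KO cells, and the measured ligand gene, Ifng, had 40 reads in DKO and 12 reads in p53 KO cells. Jak1, a receptor-associated kinase, had 42.1 RPKM in DKO and 46.5 RPKM in p53 KO cells, and 0 of the 7 measured kinase and feedback genes reached the 2-fold rule. Among these, the feedback inhibitor Socs3 had 0.479 RPKM in DKO and 1.805 RPKM in p53 KO cells, with 26 reads in DKO and 84 reads in p53 KO cells. It was 3.77-fold lower by RPKM (95% interval 2.40 to 6.10) but short of the rule on log2(RPKM + 1), which shrinks differences at such low levels. Pias1 had 32.3 RPKM in DKO and 52.98 RPKM in p53 KO cells.

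Sensors and adaptors upstream of interferon production went both ways. Mavs, the mitochondrial adaptor through which Ddx58 and Ifih1 signal, had 6.499 RPKM in DKO and 18.1 RPKM in p53 KO cells, and Tmem173, the DNA-sensing adaptor STING, had 18.1 RPKM in DKO and 38.2 RPKM in p53 KO cells. Ikbke, a kinase that activates Irf3 and Irf7, was higher, with 13.0 RPKM in DKO and 4.73 RPKM in p53 KO cells. Ticam1, the adaptor of Tlr3, had 3.14 RPKM in DKO and 4.51 RPKM in p53 KO cells. Of the other IRF factors, Irf8, which myeloid and dendritic cell progenitors depend on, had 123 RPKM in DKO and 49.6 RPKM in p53 KO cells, and Irf4 had 1.07 RPKM in DKO and 3.22 RPKM in p53 KO cells. So Irf8 differed in the direction opposite to the 7 IRF and STAT genes of the main list on the RPKM scale.

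Of 69 other measured interferon-stimulated genes, 15 (21.7%) were at least 2-fold lower and 5 (7.25%) at least 2-fold higher, beside the same 13.5% and 6.6% of all genes, with a median log2 difference of -0.40. Ube2l6, the enzyme that carries Isg15 to its targets, had 21.96 RPKM in DKO and 112 RPKM in p53 KO cells, 5.10-fold lower (95% interval 4.67 to 5.58). Tgtp1, an IRG gene with a near-identical copy and hence an uncertain value, had 67.4 RPKM in DKO and 254 RPKM in p53 KO cells. The largest differences upward were those of Ifi30, a thiol reductase of antigen-processing compartments that myeloid cells express highly, with 79.0 RPKM in DKO and 13.8 RPKM in p53 KO cells, and of the chemokine gene Cxcl10, with 32.7 RPKM in DKO and 5.56 RPKM in p53 KO cells.

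**Figure D4:**
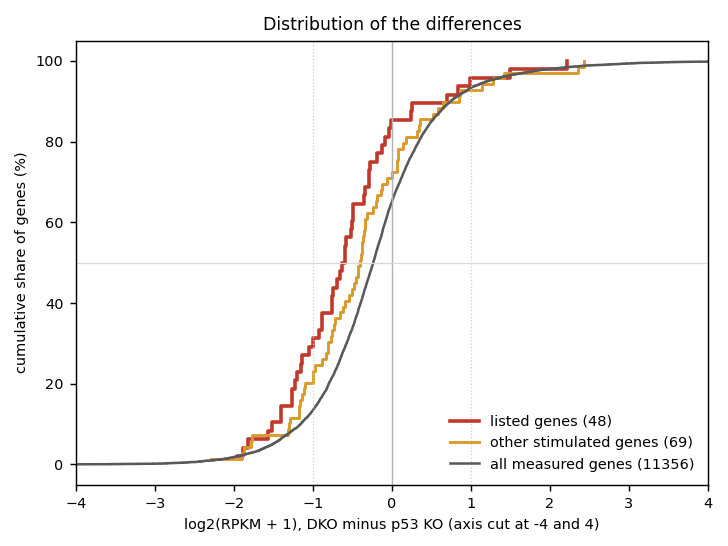
Cumulative share of genes in percent (vertical) against the difference in log2(RPKM + 1), DKO minus p53 KO (horizontal, axis cut at -4 and 4), for the 48 measured listed genes, 69 other interferon-stimulated genes and all 11356 measured genes. The curve of the 48 genes lies left of the all-gene curve over most of its range, with medians of -0.62, -0.40 and -0.24.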

How the data were processed

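LSK cells of 1 Utx/p53 DKO and 1 p53 KO library were measured by RNA-seq; genotypes come from the labels. Sorted cells went into TRIzol, and cDNA was made from oligo-dT selected RNA with a SMART kit and amplified, per the labels' protocols; sequencing was from both ends, per the series' design text. The submitters' processing notes list TopHat2 2.1.0, bcl2fastq 1.8.4 and mm9. The authors deposited RPKM values of 28344 RefSeq transcripts, which the file headers credit to gfold 1.1.4, beside a log2 fold change, a GFOLD value (log2 too) and a q-value that was 1 for every transcript. The RPKM columns are named first and second and were assigned by the order in which the header lists the libraries. The gfold constants were 1 (DKO) and 1.30144 (p53 KO), per the file headers. Strandedness and the counting of reads with several map positions are not given in the sources used here: close copies and antisense overlaps are uncertain. Amplified cDNA counted without molecular identifiers can distort low levels.

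A gene stands for its transcript with the highest mean RPKM. Differences are on log2(RPKM + 1), which understates changes of low genes, for genes averaging at least 1 RPKM. No test was made, since each genotype has 1 library. Whole reads were recovered by searching the transcript length at which both RPKM values are whole reads (within 1.1 times the rounding of the printed digits) and give the authors' log2 fold change; 92.4% of 277 listed transcripts with reads had exactly 1 solution. For 46 of the 48 measured genes this gave 550 reads in DKO (85 to 16903) and 845 in p53 KO (99 to 6103) as medians with ranges. Intervals of the ratio are exact (Clopper-Pearson, 95%). Recovery and list counts were tested on simulated data. Python 3.11.15, numpy 2.4.6, pandas 2.3.3 and scipy 1.17.1 were used.

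The genes and lists were chosen with earlier results of these data known. All listed genes are given; of the other pathway genes, Ly6a, Kit, the deleted genes and up to 4 measured genes per role with the largest absolute log2 difference are named, and Ifnb1, Ifna1, Oas1g, Siglech, Klk1 and the genes named only in the closing part were chosen after their values were seen; 1 gene that the naming rule covers is not reported here. Promoter windows came from RefSeq (GRCm38.p6), and of 46 windows of listed genes 42 matched a GENCODE transcript in sense and 0 in antisense. Gene order came from the RefSeq table of that build. Alternatives were other pseudocounts, filters, scalings, transcript choices, fold rules and list subsets.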

Additional observations from a re-analysis of the deposited data

How the results depend on the processing

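The median difference of the 48 genes relative to all genes (-0.38 on the log2 scale) stayed between -0.44 and -0.34 under the 12 alternatives it was computed for. Under the 4 scalings this follows by construction, since a shift of all genes cancels in it apart from the pseudocount. No gene past the 2-fold rule changed sign. Under the pseudocounts, filters and scalings this too follows by construction. Pseudocounts and filters keep the sign, and the scalings moved log2 ratios by at most 0.60, less than the rule asks for. Counts of genes past the rule depended on the scale. At least 2-fold lower were 15 genes, against 7 with a pseudocount of 5, 9 when centred on the median of all genes, 5 with the gfold constants, 26 and 3 with 1.5-fold and 3-fold rules, and 9 of 30 without families that have close copies. Of all genes, 13.5% were lower, against 4.19% with a pseudocount of 5, 8.76% when centred, 5.78% with the gfold constants, and 29.6% and 4.34% with the 1.5-fold and 3-fold rules. At least 2-fold higher were 2 genes, against 4 when centred, 5 with the gfold constants, 5 and 1 with 1.5-fold and 3-fold rules, 1 of 37 without receptors and regulators and 1 of 30 without families with close copies. Of all genes, 6.6% were higher, against 9.63% when centred, 15.9% with the gfold constants, and 13% and 3.25% with the 1.5-fold and 3-fold rules. At the 2-fold rule the largest lower count was 22, with equal summed RPKM, where 24.8% of all genes were lower. The cause was not tested beyond the construction of each alternative. The scalings moved the all-gene median by 0.24 (centring), -0.32 (equal sums), 0.13 (upper quartiles) and 0.51 (gfold constants). The IFIT, PARP, GTPase and other effector medians turned above 0 with the gfold constants, at 0.22, 0.17, 0.09 and 0.10, and the effector median was -1.57 with a filter at a mean of 5 RPKM. With 1 library per genotype no library could be left out. No paired analysis was possible because the result comes from no test. Depth limits the lowest genes: Mx1, with 85 reads in DKO and 99 in p53 KO, had a ratio interval of 0.544 to 0.994.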

Other observations

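Other families of interferon-stimulated genes were read from the same pathway list; the genes named here were chosen after their values were seen. The 6 other GBP genes went both ways, with a median log2(RPKM + 1) difference of 0.49. Gbp10 had 9.32 RPKM in DKO and 3.68 RPKM in p53 KO cells, Gbp4 had 7.22 RPKM in DKO and 3.53 RPKM in p53 KO cells, and Gbp7 had 23.8 RPKM in DKO and 38.3 RPKM in p53 KO cells. Uba7, whose enzyme activates Isg15 before Ube2l6 carries it, was also lower, at 7.94 RPKM in DKO and 21.1 RPKM in p53 KO cells. Among the HIN-200 genes, whose proteins bind DNA, Ifi203 had 17.0 RPKM in DKO and 60.2 RPKM in p53 KO cells. Its relatives Ifi204 (9.95 RPKM in DKO and 8.67 RPKM in p53 KO cells) and Ifi205 (7.56 RPKM in DKO and 7.58 RPKM in p53 KO cells) had ratio intervals that held 1. Mnda and Aim2, of the same family, had intervals above 1. Mnda had 15.7 RPKM in DKO and 12.1 RPKM in p53 KO cells, and Aim2 15.3 RPKM in DKO and 13.4 RPKM in p53 KO cells. These families have close copies and their values are uncertain.

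Genes of class I antigen processing, which interferons also raise, had a median log2 difference of -0.14 over 9 genes. Of these 1 (11.1%) was at least 2-fold lower, beside 13.5% of all measured genes: Tap2, with 9.90 RPKM in DKO and 23.7 RPKM in p53 KO cells. The class I genes H2-K1 and H2-D1 lay on different sides of the all-gene median: H2-K1 had 596 RPKM in DKO and 1044 RPKM in p53 KO cells, and H2-D1 had 324 RPKM in DKO and 179 RPKM in p53 KO cells. Reads of these near copies may be split between them. Of the immunoproteasome genes, Psmb8 had 464 RPKM in DKO and 511 RPKM in p53 KO cells, Psmb9 had 64.4 RPKM in DKO and 61.7 RPKM in p53 KO cells, and Psmb10 had 91.9 RPKM in DKO and 63.8 RPKM in p53 KO cells, a ratio of 1.44 (95% interval 1.35 to 1.54). Slfn1, of the Schlafen family, had 10.6 RPKM in DKO and 3.34 RPKM in p53 KO cells, while Slfn5 had 1.34 RPKM in DKO and 2.96 RPKM in p53 KO cells.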
